A study of Drosophila melanogaster with 3 samples.

Results

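Promoter flank peaks of Sox100B in fly embryos are the peaks whose summit, the base of highest signal, lay more than 200 and at most 1000 bp from the nearest transcription start site (TSS) of a protein-coding gene. Summits within 1 kb of a divergent pair, that is 2 TSSs of opposite strands at most 1 kb apart, were left out. The rule gave 1319 peaks of the 5683 that passed the authors' irreproducible discovery rate (IDR) threshold, or 23.2%, and it used no signal, sequence or side. Of these, 960 lay upstream of the TSS, outside the transcript that starts there, and 359 lay downstream of it. The binding data came from chromatin immunoprecipitation and sequencing (ChIP-seq) of mixed-sex, whole Drosophila melanogaster embryos 6 to 16 h old as their source label gives it (a separate label for age disagrees and was not used), with 3 biological replicates in 1 group. All embryos carried a stable transgene that encodes Sox100B fused at its C terminus to GFP, and the sources used here do not give what drives it. The antibody label names Sox100B, while the free-text sample description speaks of an input control, so the libraries were taken as immunoprecipitates on the strength of the antibody and assay labels. There was no second condition, and the mixture of cell types in a whole embryo means that binding in a few cells and weak binding in many cannot be told apart.

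Sox100B belongs to group E of the Sox family, the group that holds Sox9 and Sox10 in vertebrates. Sox proteins bind the minor groove of DNA through an HMG box and bend it, and their usual site holds the core ACAAAG or ACAATG. In the fly, Sox100B is known for its roles in the developing testis and in the gut. Promoters of broadly expressed fly genes often carry the DNA replication-related element (DRE) or Motif 1 close to the TSS, whereas genes of development more often have regulatory sequence spread over a wider stretch of upstream and intronic DNA.

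The windows shown here reach 100 bp to either side of the summit and stand for strong flank peaks on each side of a TSS, for a member holding a DRE and for a member holding the Motif 1 core. The upstream peaks of px, cu and HmgZ had higher signals than the upstream peaks shown, and that of Drat had a higher signal than E23. The windows of px, cu, HmgZ and Drat were left out for their chromosome arm or an annotated UTR. The windows are written 5′ to 3′ on the plus strand of dm6, which is Release 6 of the genome, as read from the RefSeq sequence. Capitals mark every match to any of the 12 patterns searched on both strands, and a capital run can hold overlapping matches. The ph-d window is chrX:2124057-2124257, with the summit 871 bp upstream of the TSS of a minus-strand gene; E23 is chr2L:3355021-3355221, 292 bp upstream, minus strand. The CG11050 window is chr2L:6612585-6612785, 998 bp downstream, plus strand. CG11151, with the DRE, is chrX:13739412-13739612, 232 bp upstream, plus strand. The gce window, with the Motif 1 core, is chrX:15297254-15297454, 412 bp upstream, plus strand.
ph-d: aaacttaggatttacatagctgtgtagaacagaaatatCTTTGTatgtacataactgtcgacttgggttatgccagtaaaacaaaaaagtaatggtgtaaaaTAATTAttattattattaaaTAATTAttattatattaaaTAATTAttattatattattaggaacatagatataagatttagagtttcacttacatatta
E23: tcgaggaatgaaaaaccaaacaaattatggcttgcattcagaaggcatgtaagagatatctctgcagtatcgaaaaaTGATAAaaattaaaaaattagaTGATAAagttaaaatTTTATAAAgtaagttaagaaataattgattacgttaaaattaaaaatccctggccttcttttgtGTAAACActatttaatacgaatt
CG11050: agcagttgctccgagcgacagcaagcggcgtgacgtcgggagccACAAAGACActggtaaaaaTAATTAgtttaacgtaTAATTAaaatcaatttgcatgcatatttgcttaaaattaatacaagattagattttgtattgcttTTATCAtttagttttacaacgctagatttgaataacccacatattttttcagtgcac
CG11151: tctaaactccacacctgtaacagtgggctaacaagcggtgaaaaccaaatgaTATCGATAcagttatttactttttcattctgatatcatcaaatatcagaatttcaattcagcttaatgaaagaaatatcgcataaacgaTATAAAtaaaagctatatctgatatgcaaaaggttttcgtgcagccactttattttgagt
gce: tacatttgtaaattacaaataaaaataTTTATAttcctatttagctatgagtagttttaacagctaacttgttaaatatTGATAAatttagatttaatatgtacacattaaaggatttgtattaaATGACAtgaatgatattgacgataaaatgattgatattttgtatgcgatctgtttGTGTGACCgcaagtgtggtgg

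A Sox core stood 62 bp before the summit in the ph-d window, as CTTTGT, and 56 bp before it in the CG11050 window, as ACAAAG. The 3 other windows held no match to the Sox core. The E23 window held a GATA factor site in the form TGATAA 23 bp before the summit and again 1 bp before it. The DRE of CG11151, TATCGATA, began 48 bp before the summit, and the Motif 1 core of gce, GTGTGACC, began 80 bp after it. A match describes the letters only and does not show that a factor was bound there.

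Flank peaks lay mostly upstream of the TSS they were nearest to, and most densely just outside the core promoter. The upstream share was 72.8% (95% exact interval 70.3 to 75.2), whereas upstream sequence made up 44.4% of the base pairs that met the same distance rule (8008 kb upstream and 10024 kb downstream). This gave 119.9 summits per Mb upstream against 35.8 per Mb downstream, a ratio of 3.35 (exact binomial test, two-sided, p = 1.4e-96). The share was 71.1%, 73.4% and 73.1% among the 1427, 1354 and 1378 flank regions found in the 5683 strongest regions of replicates 1, 2 and 3, or 72.6% ± 1.25 (SD, n = 3).

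The upstream excess was concentrated close to the TSS. From over 200 to 500 bp, 663 summits lay upstream and 114 downstream, a ratio of densities of 6.34. From over 500 to 1000 bp, 297 lay upstream and 245 downstream, with a ratio of 1.66 (exact binomial test, two-sided, p = 4.7e-09). In successive steps of 100 bp from 200 bp outward, upstream density was 249, 199, 141 and 107 per Mb, and it reached 42.2 per Mb in the last step before 1000 bp. Downstream, the density stayed between 22.9 and 44.7 per Mb in every such step. The innermost upstream step, up to 300 bp, held 288 of the 960 upstream members and was about as dense as the neighbouring step of the core promoter, between 100 and 200 bp, which had 237 per Mb.

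**Figure D1:**
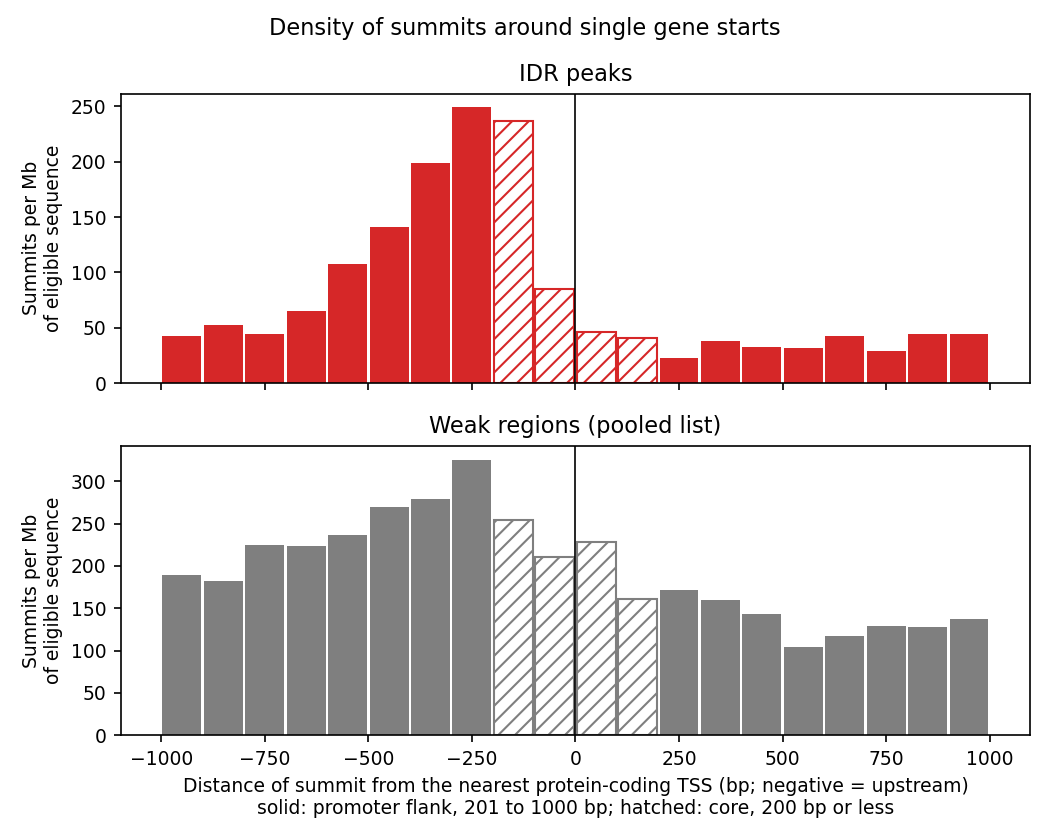
Summits per Mb of eligible sequence (y axis) by distance from the nearest protein-coding TSS in 100-bp steps (x axis, negative upstream), for IDR peaks (top) and weak regions of the pooled list (bottom); solid bars are the promoter flank and hatched bars the core. IDR peaks reach 249 per Mb between 200 and 300 bp upstream and stay at or below 44.7 per Mb downstream of 200 bp, while weak regions reach 325 per Mb upstream and are spread more evenly.

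Weak regions from the pooled list, which holds background by design, had a smaller upstream excess. Among 3335 weak regions that met the flank rule and lay over 500 bp from every IDR peak, 59.1% were upstream. The odds of lying upstream were 1.85 times higher for flank peaks than for weak flank regions (95% interval 1.61 to 2.14, Fisher's exact test, two-sided, p = 9.0e-19). With the strongest flank regions of replicates 1, 2 and 3 in place of the IDR peaks, the odds ratios were 1.71, 1.91 and 1.89. With 1 TSS per gene the ratio for IDR peaks was smaller, at 1.25 (Fisher's exact test, p = 0.0053).

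At the inner limit the median signal was higher on the flank side. The 159 peaks in the 50 bp outside the 200 bp limit had a median signal of 461, and the 205 core peaks in the 50 bp inside it had 321. Of these, 148 and 174 lay upstream. In steps of 100 bp outside and inside the limit, the medians were 475 and 398 upstream and 262 and 246 downstream. This step in signal was not tested. The 3 flank peaks nearest to the 200 bp limit, each 1 bp beyond it upstream, lay at BI-1, CG42327 and Rme-8 with signals of 570, 1012 and 1288. At the limit itself, 200 bp upstream, the core peaks of Uba1, eEF2 and dan had 190, 200 and 260. At the outer limit, the 45 flank peaks in the last 50 bp before 1000 bp had a median signal of 275 and the 55 distal peaks in the next 50 bp had 264. The members nearest to that limit were shn (243), CrzR (243) and Fim (271) at 1000 bp, and the nearest peaks beyond it were CG4733 (656), Sarm (322) and Tim17a2 (1221), at 1003, 1005 and 1006 bp.

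Flank peaks had higher signals than distal peaks and were found in all 3 replicates more often. The signal is the authors' own value for each region, on an unstated scale, and serves here only to rank regions within a list. Its median was 344 for flank peaks (359 upstream, 308 downstream), 316 for the 505 core peaks and 282 for the 3206 distal peaks, which lay over 1 kb from every TSS. The 653 peaks at divergent pairs, left out by the rule, were stronger, with a median of 393 and 64.2% above the median of the IDR list. Flank peaks made up 31 of the 100 strongest peaks and 168 of the strongest 500. The signal was above the median of the IDR list in 57.8% of flank peaks and 43.5% of distal peaks (odds ratio 1.78, 95% interval 1.56 to 2.03, adjusted exact p = 7.4e-18, Fisher's exact test with Benjamini-Hochberg adjustment). The same ratio was 1.64, 1.80 and 2.00 with the signals of replicates 1, 2 and 3.

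The difference in signal between flank and core peaks did not hold in the replicates. The share above the median was 57.8% in flank peaks and 52.1% in core peaks (odds ratio 1.26, 95% interval 1.02 to 1.56, adjusted exact p = 0.027). With each replicate's own signals the ratio was 0.882, 1.10 and 1.05, with Fisher's exact p = 0.25, 0.37 and 0.63. Upstream members were stronger than downstream ones, with 60.6% and 50.4% above the median (odds ratio 1.51, 95% interval 1.18 to 1.95, adjusted exact p = 0.0014), and replicates 1, 2 and 3 gave 1.64, 1.43 and 1.54. Among peaks found by both remaining replicates, this ratio was 1.30 without replicate 1 (adjusted exact p = 0.11) and 1.32 without replicate 2 (adjusted exact p = 0.083).

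All 3 replicates' strongest regions overlapped 1002 flank peaks, or 76.0%, beside 71.0% over the whole IDR list and 81.6% of peaks at divergent pairs. A further 188 flank peaks were overlapped by 2 replicates, 114 by 1 and 15 by none. Each replicate taken alone overlapped 87.7%, 89.3% and 88.0% of them (88.3% ± 0.845, SD, n = 3). The share found in all 3 replicates was 76.0% for flank peaks and 66.4% for distal peaks (odds ratio 1.60, 95% interval 1.38 to 1.85, adjusted exact p = 5.1e-10). In the upper 2841 peaks by signal, where 98.7% of flank peaks were found in all 3, that ratio was 0.489 and the call was lost (adjusted exact p = 0.39). Core peaks were at 72.9%, and the ratio of flank to core, 1.18 with an interval of 0.924 to 1.49, missed the threshold (adjusted exact p = 0.18). Upstream members were found in all 3 replicates more often than downstream ones, 78.0% and 70.5% (odds ratio 1.49, 95% interval 1.12 to 1.97, adjusted exact p = 0.0072). This call was lost without replicate 3 (1.34, adjusted exact p = 0.087) and with 1 TSS per gene (1.25, adjusted exact p = 0.26), and the direction turned in the upper 2841 peaks (0.802, adjusted exact p = 1.0). The IDR threshold was set on the same replicates, and the IDR peaks were the 5683 of highest signal in the pooled list. These shares therefore compare classes of peak and do not measure reproducibility from outside. The part of signal in them was not tested.

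The 3 strongest flank peaks ranked high in every replicate. They were picked by signal in the IDR list, which is drawn from the same replicates, so these ranks are no separate measure of reproducibility. CG11050 had the strongest of all, with signals of 1081, 1912 and 1137 in replicates 1, 2 and 3 (IDR list signal 4103, rank 3 of 5683; chr2L:6612404-6612935, in an intron 998 bp downstream of the TSS). The upstream peak of px, a gene that represses wing vein formation, lay 204 bp from the TSS in an intron and had 903, 1725 and 883. The upstream peak of cu, whose loss curls the wing, lay 282 bp from the TSS between genes and had 928, 1489 and 1012. Each of these peaks stood within the top 12 of every replicate's list.

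Among the other strong upstream members, HmgZ, which encodes a DNA-bending HMG-box protein, had signals of 965, 1494 and 957 in replicates 1, 2 and 3 at 609 bp. The peak upstream of brk, the repressor of Dpp target genes, had 614, 1052 and 694 at 727 bp, in an intron of another gene. E(spl)m3-HLH, a repressor switched on by Notch, had 568, 1077 and 653 at 419 bp. Their ranks in the lists of replicates 1, 2 and 3 were 7, 9 and 8 for HmgZ, 58, 54 and 43 for brk, and 69, 48 and 55 for E(spl)m3-HLH. The other upstream peaks among the 15 strongest were those of Drat, E23, CG3961, msi (an RNA-binding protein of neural precursors), l(2)k01209, by (tensin, which links integrins to actin), Atf3 (a bZIP factor), bin3 and Lk6 (a kinase of the translation factor eIF4E). In all, 11 of these 15 lay between 204 and 312 bp or at 419 bp from the TSS, and the remaining 4, at HmgZ, ph-d, brk and Lk6, lay between 609 and 992 bp.

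Both polyhomeotic genes, ph-d and ph-p, tandem copies that encode a core subunit of Polycomb repressive complex 1, had a strong flank peak. The ph-d peak, 871 bp upstream, had 740, 1231 and 798 in replicates 1, 2 and 3. The ph-p peak lay 404 bp downstream, in the 5′ UTR, and had 705, 1105 and 755. The copies are alike in sequence, and the sources used here do not give how reads that fit both were treated.

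Below the leading pair, CG11050 and ph-p, the downstream members had lower signals than the 15 strongest upstream ones. Ada2b, a subunit of histone acetyltransferase complexes, had 388, 733 and 508 at 495 bp in replicates 1, 2 and 3. Raf, the kinase at the head of the MAP kinase cascade, had 404, 697 and 410 at 833 bp, in the 5′ UTR. CG9663 had 2 summits, at 688 and 892 bp, in a single region of chr2L:3301891-3302694, so both drew on the same replicate values of 501.2, 911.2 and 510.0. The rest of the 15 strongest downstream summits, at CG31635, Dok, CHES-1-like (a forkhead factor), CG31612, Ctps (CTP synthase), wun (a lipid phosphatase that guides germ cells), CG42258, CG7694 and wake, had replicate signals between 265 and 813. Of these 15 summits, the 2 nearest to a TSS were CHES-1-like at 244 bp and wun at 394 bp, and the rest lay between 404 and 998 bp, in introns or a 5′ UTR.

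**Figure D2:**
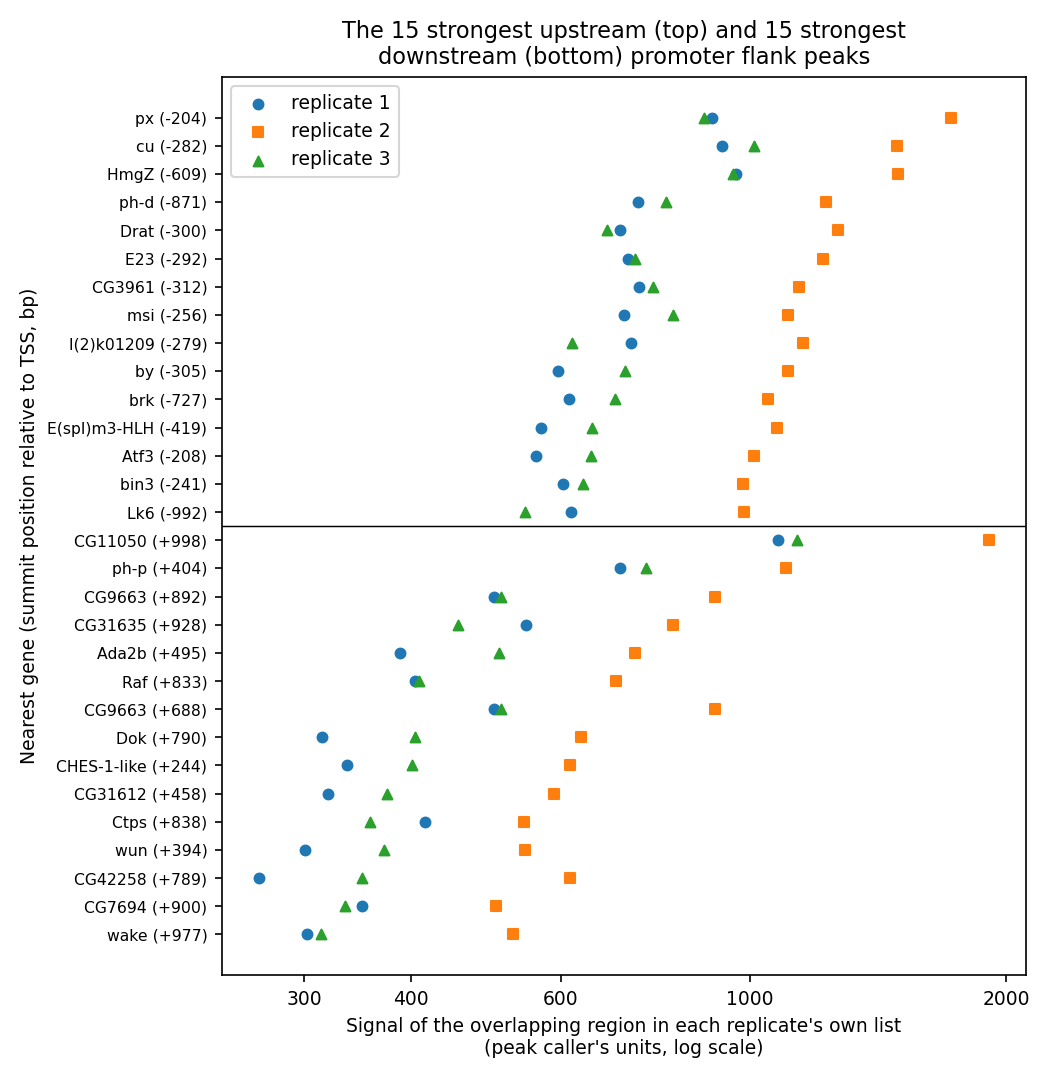
Signal in each replicate's own list (x axis, log scale, peak caller's units) for the 15 strongest upstream flank peaks (top) and the 15 strongest downstream ones (bottom), each named by its nearest gene and its distance from the TSS in bp; circles, squares and triangles are replicates 1, 2 and 3. The scales of the 3 lists are not stated, so values compare peaks within a replicate; in replicate 2 they run from 504 at CG7694 to 1912 at CG11050.

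The gene that was tagged had a flank peak of its own. It lay 406 bp upstream of the Sox100B TSS in intergenic sequence, with signals of 123, 248 and 166 in replicates 1, 2 and 3. Its signal in the IDR list was 553, rank 1226 of 5683. The transgene carries Sox100B sequence of an extent that the sources used here do not give, so binding at the endogenous gene and at the transgene cannot be told apart.

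The 1319 members belonged to 1034 genes by their nearest TSS, which is 7.41% of the 13945 protein-coding genes annotated. Of these genes, 800 had an upstream summit, 331 a downstream one and 97 both. A single flank summit was found at 817 genes, 2 at 166, 3 at 38, 4 at 10, 5 at 2 and 6 at 1. Genes with a flank peak had 2.32 annotated starts on average, against 1.41 over all protein-coding genes. A flank peak was found at 4.08% of 10246 genes with 1 start, 10.4% of 2566 with 2 starts, 29.0% of 1041 with 3 to 5 starts and 52.2% of 92 with 6 or more. More starts also mean more base pairs that meet the rule, and the part of this in the counts was not tested.

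RhoGAP18B had the most summits, 6, followed by chas and the bZIP factor gene Pdp1 with 5. Of the 10 genes with 4 summits, those with the strongest peaks were dnc, the cAMP phosphodiesterase known from learning mutants, Rtnl1, a reticulon of the endoplasmic reticulum, and Svil, a supervillin. At dnc all 4 summits lay upstream of different starts, 387, 330, 324 and 303 bp away. The strongest of these, at 324 bp, had 518, 877 and 555 in replicates 1, 2 and 3, and the weakest, at 330 bp, had 117, 151 and 77.8. At Rtnl1 all 4 were likewise upstream, at 344, 319, 274 and 236 bp, and the strongest, at 274 bp, had 364, 722 and 491. At RhoGAP18B the 6 summits were split between 2 upstream and 4 downstream, and the strongest had a signal of 525 in the IDR list. Some summits of 1 gene shared a region in the replicate lists, as those of chas at 655 and 857 bp did, with 89.1, 200.8 and 108.8 for both.

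Few flank peaks had a core peak at the same TSS, and core peaks were also few beside all annotated starts. An IDR summit lay within 200 bp of the TSS they were nearest to for 103 of the 1319, or 7.81%. There were 505 core peaks beside 19253 annotated starts. The share over all starts was not tested, so 7.81% cannot be called low. The called region of the flank peak reached across the TSS in 91 cases, 86 of them upstream. The nearest other IDR summit was a median of 2289 bp away, and 240 members overlapped another IDR peak. Of the 960 upstream summits, 549 lay at the most upstream start of their gene. In all, 411 upstream summits lay within the body of their own gene, ahead of an internal start, and 93 lay in the body of another gene.

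Upstream flank summits were in introns more often than weak flank regions within the same distance limits, and less often in coding sequence and 3′ UTRs. Introns held 48.9% of upstream flank summits and 34.4% of upstream weak regions (odds ratio 1.82, 95% interval 1.55 to 2.14, adjusted exact p = 4.4e-13, Fisher's exact test with Benjamini-Hochberg adjustment over 6 classes). Coding sequence held 1 of 960 flank summits, 0.104%, and 1.47% of weak regions (odds ratio 0.0698, adjusted exact p = 0.00019). The 3′ UTR held 2.08% and 6.35% (odds ratio 0.314, adjusted exact p = 4.4e-07), and sequence between genes held 47.5% and 56.5% (odds ratio 0.697, adjusted exact p = 9.4e-06). The 5′ UTR, with 1.46% and 1.32%, and the 200 bp around a non-coding TSS, with 1.46% and 2.13%, did not pass the threshold. The call for sequence between genes was lost, and its ratio was 1.10, when each gene was given 1 TSS (adjusted exact p = 0.54). The intron ratio was then smaller, at 1.46, and kept its call (adjusted exact p = 0.0095).

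Downstream summits were in introns still more often. Introns held 84.1% of downstream flank summits and 64.0% of downstream weak regions (odds ratio 2.98, 95% interval 2.19 to 4.12, adjusted exact p = 1.9e-13). The 5′ UTR held 10.9% and 20.4% (odds ratio 0.475, adjusted exact p = 3.4e-05), coding sequence 1.67% and 9.30% (odds ratio 0.166, adjusted exact p = 1.6e-07) and the 3′ UTR 0.557% and 2.71% (odds ratio 0.201, adjusted exact p = 0.022). The 3′ UTR call was lost in the upper 2841 peaks by signal (0.200, adjusted exact p = 0.18). With 1 TSS per gene the 5′ UTR ratio was 0.792 and did not pass (adjusted exact p = 0.25). The intron ratio was then 2.29 and kept its call (adjusted exact p = 1.1e-08). GC content averaged 32.6% in the windows of flank peaks (32.0% upstream, 34.2% downstream) and 35.0% in those of weak flank regions. Within the shared limits the median distance from the TSS was 431 bp for flank peaks and 529 bp for weak flank regions, and 1 fixed width was shared by 46.7% and 99.97% of them. The part of GC content, distance and width in these shares was not tested.

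**Figure D3:**
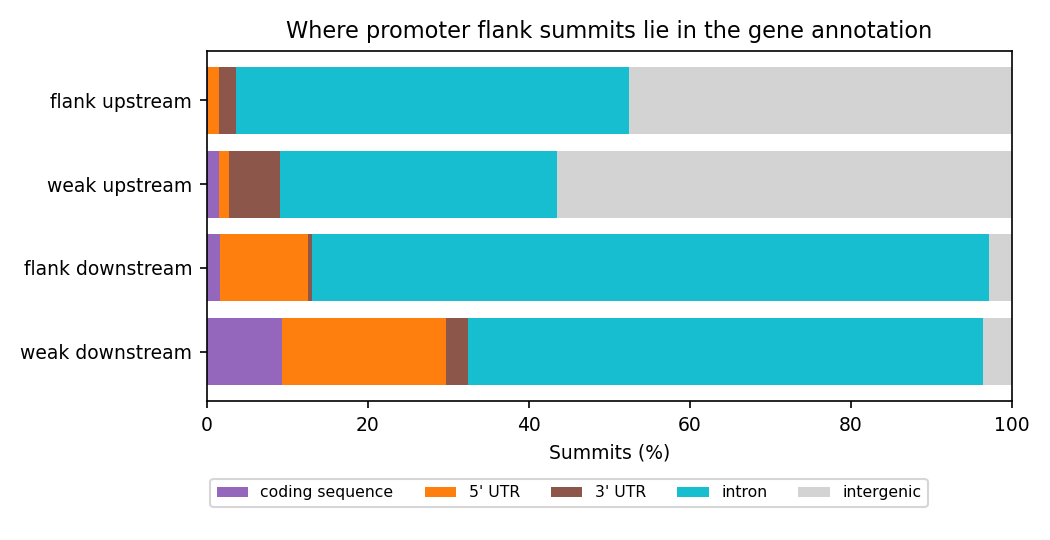
Percent of summits (x axis) in each class of annotation, for flank peaks and weak flank regions upstream (upper pair of bars) and downstream (lower pair). Introns take 48.9% of upstream flank summits and 34.4% of upstream weak ones, and 84.1% and 64.0% downstream.

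The sequence at flank peaks differed from that at core peaks in 4 of 12 patterns, among them both promoter elements. The 12 patterns were looked for on both strands up to 100 bp to either side of each summit. The DRE, TATCGATA, was found in 7 of 1319 flank windows, 0.531% (95% exact interval 0.214 to 1.09), and in 24 of 505 core windows, 4.75% (odds ratio 0.107, 95% interval 0.0387 to 0.258, adjusted exact p = 1.1e-07). The Motif 1 core, GGTCACAC, was found in 3 flank windows, 0.227%, and 11 core windows, 2.18% (odds ratio 0.103, adjusted exact p = 0.00063), a call that was lost with windows that reach 50 bp to either side (0.0952, adjusted exact p = 0.091). Among the flank regions of replicates 1, 2 and 3 the DRE share was 0.771%, 0.665% and 0.581%.

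Promoters at large also held both elements less often away from the core. In windows of the same length at every protein-coding TSS that met the distance rule, the DRE was in 3.63% at 100 bp upstream, 0.943% at 300 bp upstream and 0.308% at 600 bp downstream. The Motif 1 core was in 1.65%, 0.449% and 0.235% of those windows. Their GC content averaged 41.0%, 38.2% and 45.3%, against 32.6% in flank windows. Shares over all promoters given here were not matched for it. Flank and core peaks differ in distance from the TSS by the rule, and the part of distance alone in their difference was not tested.

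GATA factor sites (AGATAA, or with the first or last letter changed as AGATAG, or TGATAA, or TGATAG) were in 44.4% of flank windows and 36.0% of core windows (odds ratio 1.42, 95% interval 1.14 to 1.76, adjusted exact p = 0.0049). Replicates 1, 2 and 3 had them in 43.2%, 44.2% and 42.7% of their flank regions, and all promoters in 36.1% of windows at 300 bp upstream and 29.1% at 600 bp downstream. Those promoter windows averaged 38.2% and 45.3% GC, against 32.6% in flank windows, so these shares are not at like base composition. Within quintiles of GC content the ratio of flank to core was 1.32 (Mantel-Haenszel, n = 1319 and n = 505 windows, adjusted p = 0.049). The GATA call was lost with 1 TSS per gene (1.27, adjusted exact p = 0.19) and in the upper 2841 peaks by signal (1.44, adjusted exact p = 0.057). The E-box CAGCTG was in 66 of 1319 flank windows, 5.0%, and in 8.71% of core windows (odds ratio 0.552, adjusted exact p = 0.012), and this call was lost within GC quintiles (0.680, Mantel-Haenszel, adjusted p = 0.18), with 1 TSS per gene (0.585, adjusted exact p = 0.099), in the upper 2841 peaks (0.563, adjusted exact p = 0.21) and with windows that reach 50 bp to either side (0.738, adjusted exact p = 0.58). In all promoters the E-box was in 11.1%, 6.89% and 10.5% of windows at 100 bp upstream, 300 bp upstream and 600 bp downstream.

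The Sox core did not set flank peaks apart. ACAAAG or ACAATG stood in 318 flank windows, 24.1% (95% exact interval 21.8 to 26.5), in 24.0% of core windows, 26.0% of distal windows and 24.9% of weak flank windows. The odds ratio of flank peaks to weak flank regions was 0.959 with an interval of 0.823 to 1.11 (adjusted exact p = 0.72). All promoters held it in 25.2% of windows at 300 bp upstream and 22.9% at 600 bp downstream. The same bases in another order, AAGACA or ATGACA, were in 17.5% of flank windows and 17.3% of weak flank windows. Where a Sox core was present, its nearest match lay a median of 45.5 bp from the flank summit and 46.5 bp from the weak summit.

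Against weak flank regions no pattern passed the threshold after adjustment by Fisher's exact test, and 4 of 12 had an unadjusted p under 0.05. These were the TATA box TATAAA (42.2% and 38.0%, exact p = 0.010), GATA factor sites (44.4% and 40.5%, p = 0.015), the Zelda site CAGGTAG or CAGGTAA (1.52% and 2.58%, p = 0.029) and the GAGA factor site GAGAG (21.2% and 18.6%, p = 0.044). Within GC quintiles the ratio to weak flank regions was 0.972 for the TATA box (adjusted p = 0.91) and 1.12 for GATA factor sites (adjusted p = 0.30), by Mantel-Haenszel with n = 1319 and n = 3335 windows. The GAGA factor site passed within GC quintiles (odds ratio 1.39, Mantel-Haenszel, adjusted p = 0.00095) and with windows that reach 150 bp to either side, where it was in 35.7% of flank and 27.0% of weak windows (odds ratio 1.50, adjusted exact p = 8.6e-08). With windows that reach 100 bp to either side, all promoters held GAGAG in 21.8% at 300 bp upstream, beside 21.2% of flank windows. Against distal peaks no pattern passed the threshold by Fisher's exact test and none had an unadjusted p under 0.05, the smallest being 0.13. Between upstream and downstream members none passed, and 1 had an unadjusted p under 0.05, the homeodomain site TAATTA (20.9% and 15.9%, exact p = 0.043).

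**Figure D4:**
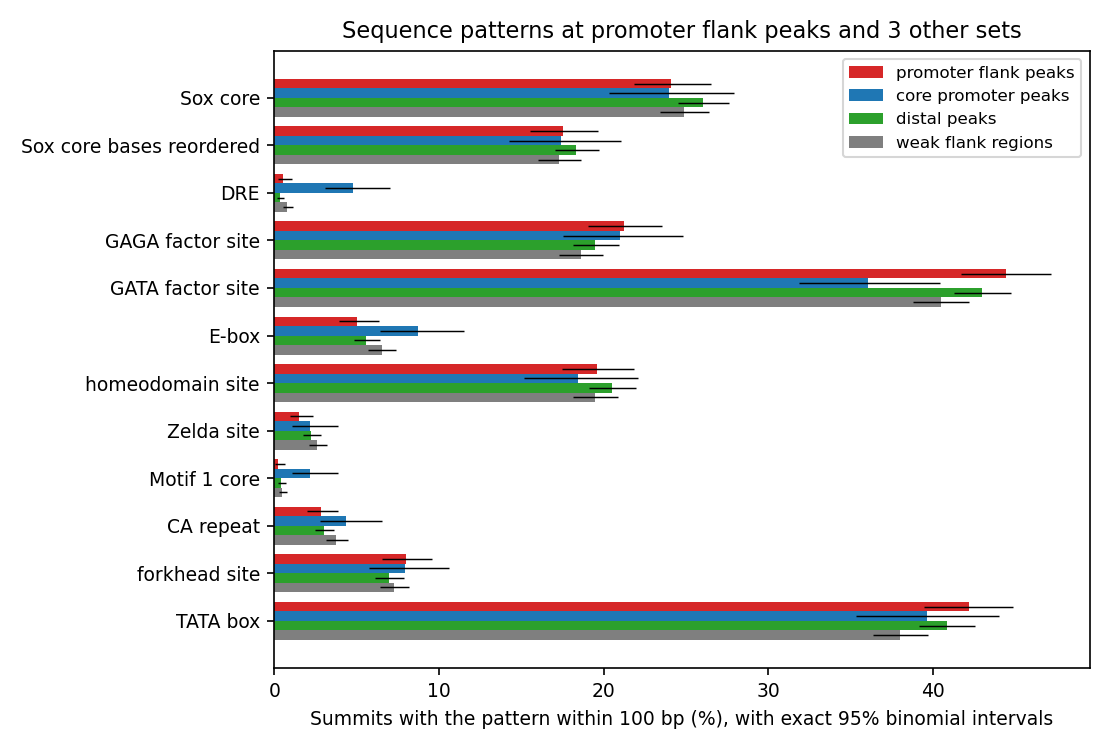
Percent of summits with each of 12 sequence patterns within 100 bp (x axis), with exact 95% binomial intervals, for promoter flank, core promoter, distal and weak flank sets. The DRE and Motif 1 core bars are highest for core peaks, at 4.75% and 2.18%, while the Sox core bars of all 4 sets lie between 24.0% and 26.0%.

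By gene list, the share with a flank peak was highest for glial, EGFR and Notch pathway genes, and none of the cytosolic ribosomal protein genes had one. The lists were chosen with earlier results of these data known, so the counts describe them without a test. Every share is to be read beside 7.41% for all protein-coding genes. That baseline is not matched for starts, and a flank peak was found at 4.08% of genes with 1 start and 10.4% with 2. Most lists averaged more starts per gene than the 1.41 of all genes, with 2.1 for glial and 1.67 for EGFR and Notch pathway genes. The part of this in the shares was not tested. Of 18 EGFR and MAP kinase pathway genes in the annotation, 8 had a flank peak, or 44.4%. They were the ligand gene spi, rho, Raf, the ETS factors pnt and aop, and the inhibitors aos, sty and kek1. The receptor gene Egfr and drk, Sos, Ras85D, Dsor1 and rl were among the listed genes without one.

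The aos peak, at the secreted EGFR antagonist Argos, lay 267 bp upstream with 579, 920 and 586 in replicates 1, 2 and 3. The spi peak, 220 bp upstream of the gene for the main EGFR ligand, had 423, 697 and 442. The pnt peak, 857 bp upstream, had 112, 162 and 102. The highest of the list in the IDR list was aos, at rank 71, and the lowest was kek1, at rank 5505, so its members ran across nearly the whole range of signals.

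In the Notch pathway, 5 of 12 genes had a flank peak, all of them upstream. At numb, an inhibitor of Notch signalling in cell divisions with unequal fates, the peak lay 254 bp from the TSS with 435, 771 and 445 in replicates 1, 2 and 3. At neur, a ubiquitin ligase that acts on Notch ligands, it had 305, 417 and 312 at 237 bp. Peaks at fng, mam and N itself were lower, with IDR list signals of 621, 360 and 197. Among 8 Sox genes, Sox14, Sox102F and Sox100B had one, and the Sox14 peak, 244 bp upstream, had 467, 752 and 465. Sox102F had 358, 447 and 269 at 271 bp upstream.

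Of 10 glial genes, 5 had a flank peak, and pnt stands in this list as well as in the EGFR list. The listed glial genes without one were repo, gcm, gcm2, moody and wrapper. The peaks of Gli, Gs2 and loco lay downstream, at 315, 539 and 713 bp, with IDR list signals of 650, 641 and 487. Ecdysone response genes had 4 of 11, at ftz-f1, EcR, Eip75B and Blimp-1, all upstream between 569 and 630 bp. Their signals in the IDR list were low to middling, between 221 and 402, and the list averaged 3.73 starts per gene. Among 19 cell cycle genes, 6 had a flank peak, led by CycE (403, 742 and 409 in replicates 1, 2 and 3, at 509 bp upstream).

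Of 40 pattern and fate regulators, 10 had a flank peak, led by trh (340, 595 and 328, at 350 bp upstream), the tracheal master regulator, and fkh (377, 529 and 326, at 214 bp upstream), which specifies salivary gland and gut. The somatic gonad list had 3 of 13, namely tin, dsx and tj, at 290, 422 and 657 bp upstream. The dsx gene, which carries out sex-specific development, had 152, 269 and 176 in replicates 1, 2 and 3. The peak of tj, a gene of gonadal somatic cells, had 82.7, 174 and 88.7.

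The other lists with a flank peak had shares between 7.69% and 27.8%. Wnt pathway genes had 5 of 18, among them nkd (270, 349 and 224 in replicates 1, 2 and 3), a feedback inhibitor, and Wnt6. Dpp pathway genes had 3 of 14 (brk, Mad and shn), Polycomb and trithorax group genes 4 of 18 (both polyhomeotic genes, Trl and osa), and muscle genes 3 of 14. Hox genes had 2 of 8 (Dfd and Antp), JAK-STAT genes 2 of 8 (Stat92E and Socs36E), epidermal genes 2 of 8 (grh and tyn), cell death genes 2 of 10 (Diap1 and hid) and neuronal genes 2 of 12 (elav and Syx1A). Of these, elav, the gene of a neuron-specific RNA-binding protein, was the strongest, with 573, 824 and 476 at 253 bp upstream. Hedgehog genes had 1 of 10 (ptc), tracheal genes 1 of 11 (trh) and insulator and promoter factors 1 of 13 (Trl).

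Ribosomal protein genes had no flank peak, in part by the rule. None of 86 had a flank peak, although 59 of them, 68.6%, had an IDR summit somewhere within 1 kb of a TSS, beside 14.0% of all protein-coding genes. Their summits were at core promoters for 20 genes (23 summits, median signal 400) and at divergent pairs for 39 (44 summits, median signal 608). The rule leaves out summits at divergent pairs, so those 44 could not count as flank peaks. Likewise none of 14 heat shock and chaperone genes had a flank peak, while 2 had a summit at a core promoter and 3 at a divergent pair. Over all protein-coding genes, 1954 had an IDR summit within 1 kb of a TSS, and 1034 of these had a flank peak. In the EGFR list, all 8 genes with any promoter peak had a flank peak. The same held in several other lists, among them all 10 such pattern and fate regulators and all 5 such Wnt pathway genes.

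**Figure D5:**
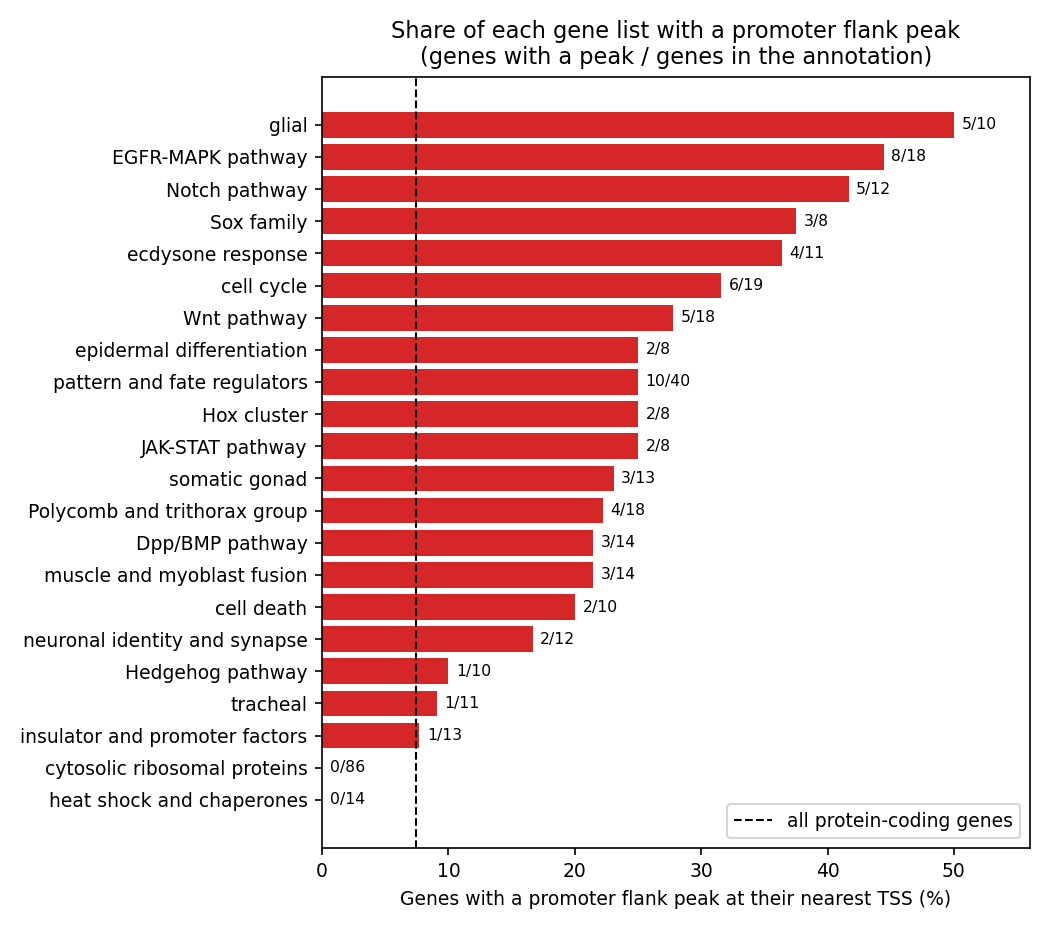
Percent of each list's annotated genes with a promoter flank peak (x axis), with the counts beside the bars and a dashed line at 7.41% for all protein-coding genes. EGFR and Notch pathway genes have 44.4% and 41.7%, while ribosomal protein and heat shock genes have none, with peaks at divergent pairs left out by the rule.

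Flank peaks were found on all 6 chromosome arms. Arms 2L, 2R, 3L and 3R held 246, 248, 259 and 290 of them, X held 268 and chromosome 4 held 8. X had 20.3% of flank peaks and 17.4% of the eligible base pairs, or 85.6 per Mb, the 4 large autosomal arms had between 67.8 and 74.4 per Mb, and chromosome 4, with its 8 peaks, had 55.7 per Mb. These shares were not tested, since arms are single units here.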

How the data were processed

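ChIP-seq of Sox100B-GFP was carried out in 3 embryo samples of 1 group, and chromatin was sheared by sonication to 200 to 800 bp per the labels. The authors deposited 5 narrowPeak lists on dm6: 30000 regions for each replicate and 30000 for the pooled replicates, described per the file headers and names as peaks with background for IDR, and 5683 regions that passed the optimal IDR threshold. Those 5683 were the 5683 of highest signal in the pooled list. Which aligner, peak caller and IDR cut-off were used is not given in the sources used here. Each deposited signal is the caller's own, with no stated scale, and was compared only within a list. The deposited −log10 q-value was read but supports no statement. The deposited summit offset gave the summit. Read depth is unknown, so intervals cover the counting of regions only.

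TSSs were the 19253 transcript starts that Ensembl release 115 gives for 13945 protein-coding genes on 6 arms. Replicate support used the 5683 strongest regions of each replicate and an overlap of at least 1 bp. Weak regions lay over 500 bp from every IDR region. Fisher's exact test (two-sided) was applied to shares, with Benjamini-Hochberg adjustment within each family and a threshold of 0.05, the upstream share by an exact binomial test, and GC content by Mantel-Haenszel odds ratios over 5 quintiles. Adjacent regions can depend on each other, so a p-value speaks of these regions and not of further embryos. Alternatives were 1 TSS per gene, the stronger part of the IDR list, each replicate left out, other overlaps and windows, and weaker comparators. Analyses were tested on simulated data and used Python 3.11.15, NumPy 2.4.6, pandas 2.3.3, SciPy 1.17.1, statsmodels 0.14.6 and matplotlib 3.10.9.

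Members, patterns and lists were chosen with earlier results of these data known. List symbols with no match in the annotation were left out of the counts. Named genes were Sox100B, the nearest gene of the 15 strongest upstream and 15 strongest downstream peaks, the 6 genes with most summits (ties taken by strongest signal), leading members of each list by signal, and the 3 peaks on either side of each distance limit. Windows were printed only where they held no annotated UTR and lay outside arm 2R. Further list members named to account for counts were chosen after their values were seen, as were CG11151 and gce, whose windows were the strongest outside annotated UTRs to hold a DRE or a Motif 1 core.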

Additional observations from a re-analysis of the deposited data

How the results depend on the processing

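The upstream excess and the higher signal against distal peaks kept their direction and call under every alternative that could change them, and the upstream share ranged from 54.8% (over 500 to 1000 bp) to 85.3% (over 200 to 500 bp). With 1 TSS per gene, 906 peaks met the rule in place of 1319. The upstream share was then 64.8%, and the odds ratio of lying upstream against weak flank regions fell from 1.85 to 1.25 (Fisher's exact test, p = 0.0053). No paired analysis was possible because there is only 1 group. The signal difference from core peaks was not stable: the odds ratio was 0.995 with 1 TSS per gene, 0.885 in the upper 2841 peaks by signal, 1.01 with the replicates' own signals, 1.20 with only the strongest of overlapping peaks and 1.11 to 1.13 when a replicate was left out, and the cause was not tested. Leaving out a replicate gave ratios of 1.30 to 1.40 for signal upstream against downstream, 1.34 to 1.65 for support upstream against downstream, and support of 79.9% to 81.1%, now by 2 replicates. Support by all 3 replicates was 74.8% with 1 TSS per gene, 98.7% in the upper 2841, 49.6% with 50% overlap, 48.6% with 2841 regions per replicate and 74.1% with the strongest of overlapping peaks. Its ratio upstream against downstream lost its call at 1.25 with 1 TSS per gene and at 0.802 in the upper 2841, where flank against distal was 0.489 (adjusted exact p = 0.39) and 763 flank peaks remained, nearly all of them supported. Patterns past the threshold against core peaks numbered 2 with 1 TSS per gene, in the upper 2841 and with 50 bp windows, and the DRE was among them each time; the GATA factor site lost its call in the first 2 of these and the E-box in all 3. Against weak regions they numbered 2 with 50 bp windows, with the lower-signal weak regions and with the strongest of overlapping peaks (GATA factor site and TATA box each time), 1 with 150 bp windows and within GC quintiles (GAGA factor site), and 0 to 1 when a replicate was left out. The Sox core ratio to weak regions was 1.01 and 1.08 with 50 and 150 bp windows and passed in neither. The upstream intergenic ratio was 1.10 with 1 TSS per gene. Alternatives with any opposite-strand pair, or with the strongest of overlapping peaks, were chosen after seeing the data; the first changed no call.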
